A study of Mus musculus with 6 samples.

Results

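The 30 genes described here encode enzymes of cholesterol synthesis (16 genes), enzymes of fatty acid synthesis (10 genes) and regulators of both pathways (4 genes). They were taken by gene name from a table of 53110 genes, and all 30 were found. Each had a mean of 10 normalized counts or more, the level set for testing, as did 16266 genes in all. RNA-seq data of mouse neural stem cells (NSCs) comprised 3 samples of WT and 3 of Setd5+/- cells. The WT NSCs were primary cells from the cortex of mid-gestation embryos. The Setd5+/- NSCs carried a CRISPR-Cas9 mutation of 1 allele of Setd5, a gene for a protein with a SET domain, and the names of their sequencing runs carry the tag cl A3, which may mark a single clone. All NSCs were grown attached to Matrigel with bFGF and EGF in an incubator at 21% oxygen. The 3 samples of a genotype shared one sequencing index and lane, and, counted as read pairs, differed by no more than random sampling (chi-square over degrees of freedom between 0.958 and 0.981, against 31.7 to 31.9 between genotypes). Pairs were taken as the unit because the sequencing was paired-end and 70.9 to 73.5% of the values of 1 to 20 reads were even, as when both ends of a pair are counted. Over single reads the chi-square values within a genotype were 1.92 to 1.96. They were therefore counted as parts of 1 library per genotype, so that n = 1, the intervals below cover counting error only, and a p-value from limma sets the reads of one library against those of the other. Genotype, clone, library and lane cannot be told apart in these samples.

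Cholesterol is built from acetyl-CoA through the mevalonate pathway, which yields farnesyl diphosphate, and then through squalene and lanosterol. Fatty acids are built from the same acetyl-CoA, and are then lengthened by elongases and given double bonds by desaturases. Both branches are classical targets of the SREBP transcription factors, which SCAP escorts from the endoplasmic reticulum to the Golgi and which INSIG proteins hold back when sterols are plentiful. Srebf2 is known mainly for the cholesterol branch and Srebf1 for the fatty acid branch. Dividing neural cells make most of their own cholesterol, since little of it crosses from the blood.

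The targeted gene was read first, as a check of the labels. Setd5 (ENSMUSG00000034269) had 2498, 2749 and 2780 normalized counts in WT and 2151, 1990 and 2055 in Setd5+/-. Every Setd5+/- sample lay below every WT sample, and the log2 fold change was −0.37 (95% counting interval −0.44 to −0.30; limma adjusted p = 3.13e-09). At or below this value were 25.7% of all tested genes, and in 65.3% the samples of the genotypes did not overlap. The check of the labels is therefore a weak one. The libraries held 30004634 reads on genes in WT and 21435546 in Setd5+/-. The genes of chromosome 1 were shifted upwards in the mutant library, to a median log2 fold change of 0.53 over 1044 tested genes, against −0.04 on the other chromosomes. Only 1 of the 30 genes, Hsd17b7, lies there. NSC markers were present in both libraries, with summed normalized counts of 72296 to 72590 in WT and 51447 to 52155 in Setd5+/- samples over 7 genes. Those of 5 neuronal markers were 367 to 399 in WT and 73.9 to 88.1 in Setd5+/-. Rbfox3 and Stmn2 were at 0 in the mutant samples, but had only 27 and 2 reads in WT. Summed counts of 5 astrocyte markers were 6442 to 6603 in WT and 8669 to 8741 in Setd5+/-. For 7 markers of the oligodendrocyte lineage they were 40723 to 41627 and 23147 to 24007. Mog was at 0 in the mutant samples, but had only 7 reads in WT. Mesenchymal, microglial and endothelial markers summed to between 2.38 and 116.9 in every sample. Marker lists of several cell types therefore moved along with the genotype, and their part in the changes below was not tested. In such bulk samples, fewer cells of a type and less RNA per cell cannot be told apart.

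The DNA just before the start of these genes holds short elements through which SREBPs and their partners are known to act. Windows of 250 bases before each start in RefSeq (GRCm38.p6) were found for 24 of the 30 genes and were searched on both strands for TCACNCCAC, which stands here for the core of a sterol regulatory element, for CCAAT, the element bound by NF-Y, and for GGGCGG, an Sp1 element. Fads1, Fdft1, Fdps, Scd1, Scd2 and Sqle had no entry. A gene was counted once, if any of its windows held the letters. Hmgcs1 is shown because it was the only one of the 24 genes with TCACNCCAC. Mvd and Lss are shown as further sterol genes with a large fall, and Fasn as a gene of the fatty acid branch, all 3 chosen after their values were seen. Capitals mark matches to TCACNCCAC and CCAAT in either direction, and all are written 5′ to 3′ on the strand of the gene. The windows are chr13:119690101-119690350 on the plus strand for Hmgcs1, chr8:122443423-122443672 on the minus strand for Mvd, chr10:76531355-76531604 on the plus strand for Lss and chr11:120824548-120824797 on the minus strand for Fasn.
Hmgcs1: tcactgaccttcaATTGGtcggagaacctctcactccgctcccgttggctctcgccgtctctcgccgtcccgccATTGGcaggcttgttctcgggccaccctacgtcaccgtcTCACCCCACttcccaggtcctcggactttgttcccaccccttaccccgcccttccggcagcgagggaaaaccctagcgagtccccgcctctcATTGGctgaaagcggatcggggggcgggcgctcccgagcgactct
Mvd: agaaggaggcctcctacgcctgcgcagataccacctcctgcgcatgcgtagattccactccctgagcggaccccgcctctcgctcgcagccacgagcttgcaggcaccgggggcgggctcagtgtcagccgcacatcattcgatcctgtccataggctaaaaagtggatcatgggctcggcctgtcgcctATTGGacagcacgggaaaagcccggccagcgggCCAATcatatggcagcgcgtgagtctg
Lss: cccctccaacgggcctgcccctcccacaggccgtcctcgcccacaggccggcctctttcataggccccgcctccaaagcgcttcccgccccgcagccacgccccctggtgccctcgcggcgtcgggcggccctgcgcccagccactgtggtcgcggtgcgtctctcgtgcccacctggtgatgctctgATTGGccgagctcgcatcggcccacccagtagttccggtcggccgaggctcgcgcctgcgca
Fasn: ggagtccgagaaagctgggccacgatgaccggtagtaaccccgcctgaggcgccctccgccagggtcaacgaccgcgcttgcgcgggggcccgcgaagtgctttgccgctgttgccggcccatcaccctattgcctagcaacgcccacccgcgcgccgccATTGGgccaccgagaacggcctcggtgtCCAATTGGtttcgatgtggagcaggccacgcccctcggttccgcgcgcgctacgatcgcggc

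CCAAT was present in 13 of the 13 sterol genes with a window, in 3 of the 4 regulators and in 3 of the 7 fatty acid genes. Among all tested genes with a window it was present in 40.8%. In the window of Hmgcs1 it occurred 3 times, always in the reverse direction (ATTGG), and the last copy ended 41 bases before the start. The TCACNCCAC match of Hmgcs1 lay 137 to 129 bases before the start, and 1.32% of the tested genes had one. Fasn held 3 copies of CCAAT, a pair of which overlapped as CCAATTGG. GGGCGG was found in 12 of the 13 sterol genes, in all 4 regulators and in 3 of the 7 fatty acid genes, against 64.2% of the tested genes. Acaca was counted as lacking CCAAT and GGGCGG, but its only window (chr11:84195188-84195437, plus strand) lies inside the gene. The gene starts at chr11:84129672, and the DNA before that start was not searched. All matches given here describe the letters of the windows, and no binding was measured.

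Genes of cholesterol synthesis were lower in Setd5+/- NSCs as a group, whereas those of fatty acid synthesis went both ways. The median log2 fold change of the 16 sterol genes was −0.69, from −1.37 to 0.01, and 15 of them were below 0. The 10 fatty acid genes had a median of 0.21, from −1.11 to 1.17, with 3 below 0 and 7 above. The 4 regulators were all above 0, with a median of 0.30. Over all 16266 tested genes the median was −0.02. The medians of both branches were 0.90 apart on the log2 scale (sterol minus fatty acid, −0.90). Without the 5 genes that have a near-identical pseudogene, the sterol median was −0.23, the fatty acid median 0.41 and the difference −0.64, so that the size of the sterol median depends on those genes.

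Past the limma threshold (adjusted p under 0.05) were 12 lower and 0 higher sterol genes, 3 lower and 6 higher fatty acid genes, and 4 higher regulators. Of all tested genes, 30.9% were lower and 30.3% higher by this call, so that passing it is common in these libraries. At least 2-fold lower were 5 of the 16 sterol genes and 1 of the 10 fatty acid genes, against 6.38% of all tested genes. Without Setd5+/- sample 3, 4 genes in all were past the line, since Mvd stood at −0.96 and Idi1 at −0.88. At least 2-fold higher were 1 regulator and 1 fatty acid gene, against 10.3% of all tested genes. In 26 of the 30 genes the 3 WT values and the 3 Setd5+/- values did not overlap, which was so for 65.3% of all tested genes. The exceptions were Pmvk, Hsd17b7, Ebp and Acaca. The values nearest to the 2-fold line were those of Mvd (−1.04) just past it, and of Scd1 (0.97) and Mvk (−0.90) just short of it.

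**Figure D1:**
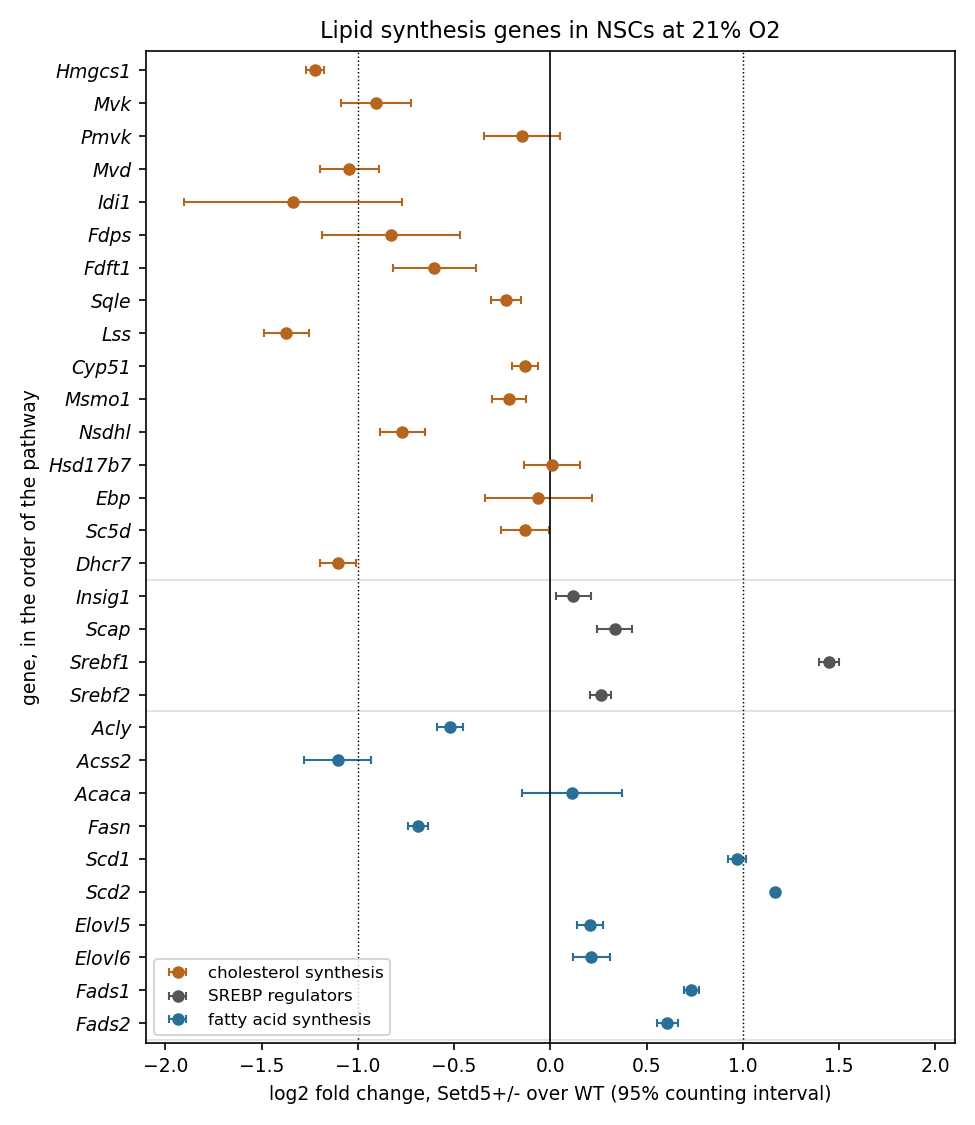
Log2 fold change (horizontal axis, Setd5+/- over WT) of the 30 genes in the order of the pathway (vertical axis), with bars for the 95% counting interval, which covers counting error only, and dotted lines at a 2-fold change. The sterol genes lie between −1.37 and 0.01, and the fatty acid genes spread from −1.11 for Acss2 to 1.17 for Scd2.

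**Figure D2:**
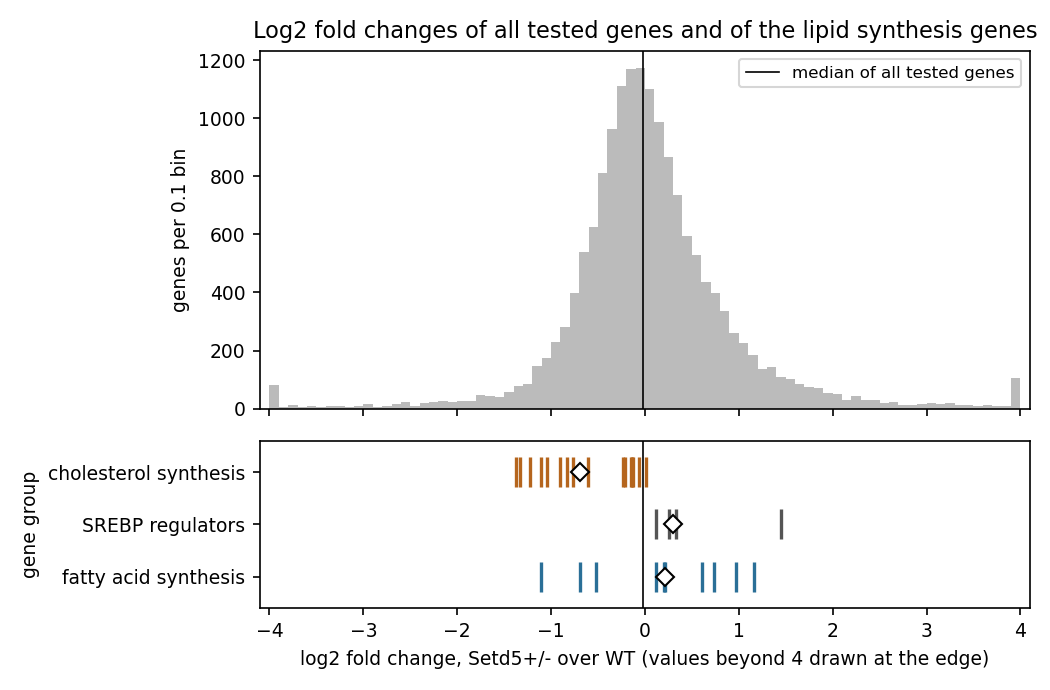
Histogram of the log2 fold changes (Setd5+/- over WT) of the 16266 tested genes, above, and the 30 genes as ticks by group, below, with a diamond at each median and a line at the median of all tested genes. The medians are −0.69 for cholesterol synthesis, 0.30 for the regulators and 0.21 for fatty acid synthesis, against −0.02 for all genes, and −0.23 for cholesterol synthesis and 0.41 for fatty acid synthesis without the genes that have a near-identical pseudogene.

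For the 6 genes of the first steps of the cholesterol branch, from acetyl-CoA to farnesyl diphosphate, the median was −0.97, and 5 of them were lower past the limma threshold. Hmgcs1 (ENSMUSG00000093930), on chromosome 13, encodes the synthase that makes HMG-CoA and was the most abundant sterol gene, per kilobase of exon as well. It had 8609, 8347 and 8437 normalized counts in WT and 3609, 3655 and 3617 in Setd5+/-. The mutant samples stood far below the WT samples, at 42.9% of their mean, which is −1.22 on the log2 scale (95% counting interval −1.27 to −1.18; limma adjusted p = 1.87e-26). At or below this value were 4.28% of all tested genes. An antisense gene, Gm48342, overlaps 12.1% of its exon bases, and its reads cannot be set apart where counting ignores strand.

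Next in order are the kinases Mvk and Pmvk, which phosphorylate mevalonate. Mvk fell from 467 to 251 normalized counts, or by 0.90 on the log2 scale (−1.09 to −0.72). Pmvk had 275, 285 and 303 in WT and 296, 243 and 243 in Setd5+/-. The groups overlapped in Pmvk, and its difference of −0.15 (−0.34 to 0.05) did not pass (limma adjusted p = 0.199). Mvd, which makes isopentenyl diphosphate, had 713, 727 and 672 in WT and 365, 358 and 303 in Setd5+/-, without overlap and with −1.04 on the log2 scale (−1.20 to −0.89).

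Idi1, the isomerase of isopentenyl diphosphate, was the least abundant sterol gene by the reads placed on the gene itself. It had 62.2, 55.4 and 47.2 normalized counts in WT and 28.6, 29.8 and 10.7 in Setd5+/-. All WT samples lay above all mutant samples. Its log2 fold change of −1.34 had a wide interval (−1.90 to −0.77), since it rests on 199 reads in WT and 58 in Setd5+/-. Without Setd5+/- sample 3, the lowest, it was −0.88 (limma adjusted p = 0.00449). Fdps, the synthase of farnesyl diphosphate, went from 116 to 65.1, a log2 fold change of −0.83 (−1.19 to −0.47). Near-identical pseudogenes (at least 95% identical over at least 200 bases) exist for both, 2 for Idi1 and 4 for Fdps, and a single read can often not be placed between them and the gene. The reads on the gene itself were 23.3% of the sum over gene and pseudogenes in WT for Idi1 and 19.5% for Fdps. The sums fell as well, by 1.11 (Idi1, interval −1.38 to −0.84) and by 0.96 (Fdps, −1.13 to −0.80) on the log2 scale. Fdps also shares 26.7% of its exon bases with Gm43738 on the same strand.

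The 10 later genes, from squalene to cholesterol, had a median log2 fold change of −0.22, and no test compared them with the first 6. Of these, 7 were lower past the limma threshold and 2 were at least 2-fold lower. Lss, which closes squalene epoxide to lanosterol, fell most of all 30 genes. Its normalized counts were 1495, 1506 and 1549 in WT and 596, 578 and 584 in Setd5+/-. Each mutant sample lay under each WT sample by a wide margin, and the log2 fold change was −1.37 (−1.49 to −1.26; limma adjusted p = 3.27e-19). Dhcr7, which reduces 7-dehydrocholesterol to cholesterol as the last step, had 2002, 1961 and 2089 in WT and 893, 942 and 979 in Setd5+/-, and changed by −1.10 (−1.20 to −1.01). Its samples did not overlap either.

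Between these, the changes were small at several steps. Sqle, the squalene epoxidase just before Lss, had 1940, 1865 and 1915 in WT and 1524, 1629 and 1718 in Setd5+/-, and fell by 0.23 on the log2 scale (interval −0.31 to −0.16). Within a sample, the ratio of Sqle to Lss thus went from 1.26 in WT to 2.77 in Setd5+/-. The demethylating enzymes after lanosterol were split. Nsdhl fell by 0.77 (−0.88 to −0.65), Msmo1 by 0.22 (−0.30 to −0.13) and Cyp51 by 0.13 (−0.20 to −0.07). Fdft1, the squalene synthase, fell by 0.60 (−0.82 to −0.39) on the log2 scale, and the sum with its pseudogene Gm6781, which took most of the reads, fell by 0.67. Fdft1 further overlaps Ctsb on the opposite strand over 18.3% of its exon bases.

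Hsd17b7, Ebp and Sc5d, the remaining sterol genes, did not pass. Hsd17b7, which reduces a ketone of the sterol ring, had 461, 544 and 430 in WT and 478, 486 and 472 in Setd5+/-. Its mutant values lay inside the WT range, a difference of 0.01 on the log2 scale (−0.14 to 0.15), and its sign changed when samples were rescaled. It is the gene on chromosome 1, where the typical gene stood at 0.53. Ebp, the sterol isomerase, differed by −0.06 (−0.34 to 0.21) on the log2 scale, and Sc5d, a desaturase of the sterol ring, by −0.13 (−0.26 to −0.01; limma adjusted p = 0.0647).

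Summed over the 16 sterol genes, normalized counts went from 22148 in WT to 13291 in Setd5+/-, and thus dropped by 40.0%. Hmgcs1 alone made up 38.2% of the WT sum.

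**Figure D3:**
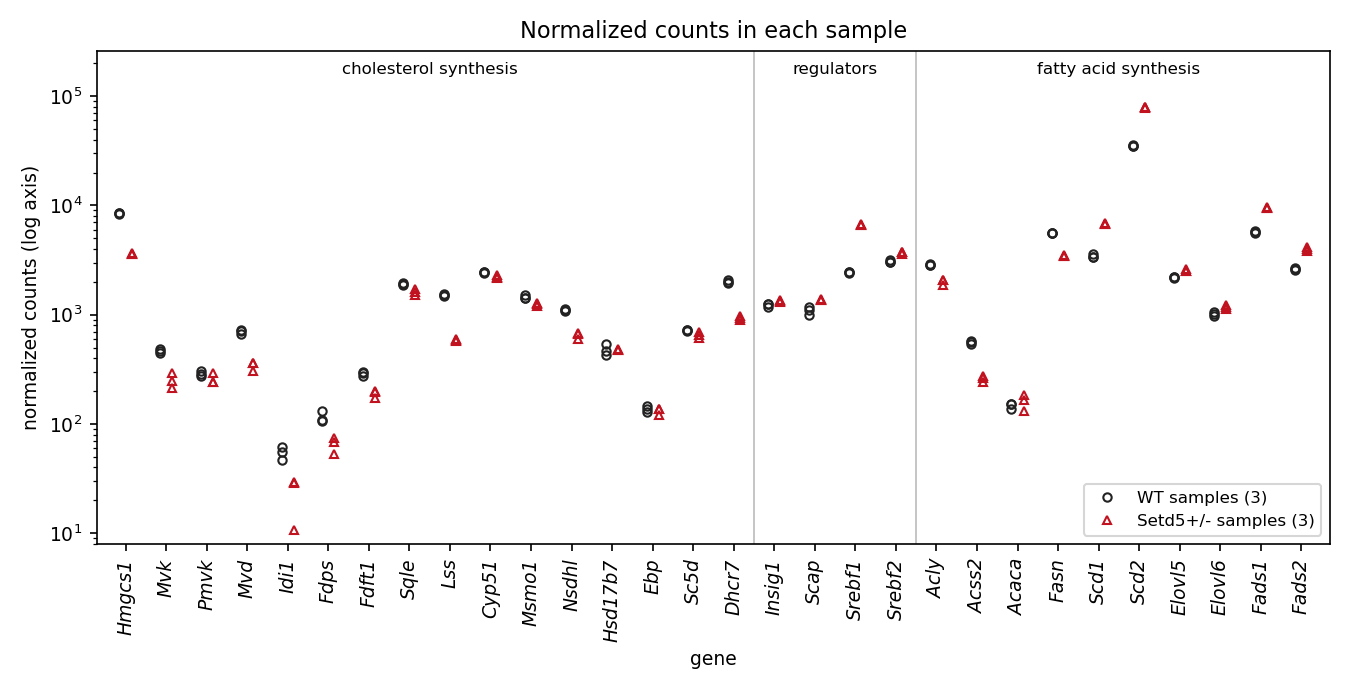
Normalized counts (vertical log axis) of the 30 genes in each of the 3 WT samples (circles) and 3 Setd5+/- samples (triangles). The parts of a library lie close together, and Scd2 stands above all others, between 35100 and 35359 in WT and between 78489 and 79512 in Setd5+/-.

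The 4 regulators were all higher in Setd5+/- NSCs, and Srebf1 changed most. Srebf1 (ENSMUSG00000020538), on chromosome 11, had 2411, 2433 and 2460 normalized counts in WT and 6561, 6781 and 6572 in Setd5+/-. No mutant sample came near a WT sample, the fold was 2.73 and the log2 fold change 1.45 (95% counting interval 1.39 to 1.5; limma adjusted p = 1.52e-26). At or above this value were 5.69% of all tested genes. The gene has several start sites in RefSeq, and these gene-level values do not tell its transcripts apart.

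Srebf2, the other SREBP gene, moved less, with 3022, 3059 and 3148 in WT and 3738, 3723 and 3596 in Setd5+/-, without overlap. Its log2 fold change was 0.26 (0.21 to 0.32). Per kilobase of exon, the levels of both genes were alike in WT, at 432 for Srebf1 and 428 for Srebf2, whereas in Setd5+/- they were 1178 and 513. In normalized counts the ratio of Srebf1 to Srebf2 within a sample went from 0.791 to 1.80.

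Scap, the escort of the SREBPs, rose by 0.33 (0.24 to 0.42), from 1095 to 1376 normalized counts. Insig1, which retains the SREBPs and is itself known as an SREBP target, had 1250, 1184 and 1260 in WT and 1375, 1293 and 1341 in Setd5+/-. The values lay side by side without overlap. The log2 fold change of Insig1 was the smallest of the 4, at 0.12 (0.03 to 0.21; limma adjusted p = 0.0229), and it did not pass under TMM scaling (adjusted p = 0.0745), without the trend of the variance (0.128), without WT sample 2 (0.124) or without Setd5+/- sample 1 (0.0880).

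Of the 10 fatty acid genes, those that supply acetyl-CoA and build chains were lower or did not pass, and the 2 elongases and 4 desaturases were higher. Chain-modifying genes outside these 10 went both ways, with Elovl2 lower by 1.79 and Elovl7 higher by 0.86 on the log2 scale. The median was −0.61 over the 4 genes of acetyl-CoA supply and chain synthesis, 0.21 over the 2 elongases and 0.85 over the 4 desaturases. Acss2, which makes acetyl-CoA from acetate, fell most, with 564, 541 and 579 normalized counts in WT and 261, 244 and 276 in Setd5+/-. Its groups were far apart, at a log2 fold change of −1.11 (−1.28 to −0.93; limma adjusted p = 1.86e-12). Acly, which makes acetyl-CoA from citrate, fell by 0.52 (−0.59 to −0.46), from 2866 to 1995.

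Fasn, the fatty acid synthase, had 5606, 5575 and 5588 in WT and 3453, 3526 and 3431 in Setd5+/-. All mutant values were lower than all WT values, and the difference was −0.69 (−0.74 to −0.64; limma adjusted p = 8.87e-20). Acaca, the acetyl-CoA carboxylase that feeds it, had 136, 151 and 152 in WT and 184, 131 and 164 in Setd5+/-, and the groups overlapped. The difference of 0.11 (−0.15 to 0.37) did not pass (limma adjusted p = 0.486). In WT only 24.6% of the summed reads of Acaca and its pseudogene Gm5182 were on Acaca, and the log2 fold change of the sum was 0.28 (0.16 to 0.41).

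Among the desaturases, Scd2 (ENSMUSG00000025203) was the most abundant of all 30 genes in both libraries, per kilobase of exon as well. This stearoyl-CoA desaturase, which puts a double bond into saturated chains and is the main form in brain, had 35359, 35146 and 35100 normalized counts in WT and 78489, 79512 and 78867 in Setd5+/-. The mutant values were all more than the WT values by a factor of 2.24, or 1.17 on the log2 scale (1.15 to 1.18; limma adjusted p = 7.71e-37). Scd1, its relative, had 3593, 3383 and 3404 in WT and 6890, 6718 and 6709 in Setd5+/-, again without overlap, and rose by 0.97 (0.92 to 1.02). The transcripts of Scd1 and Scd2 were 86.8% identical over 1261 bases, so that some reads could be counted on the wrong one. The ratio of Scd1 to Scd2 was 0.0983 in WT and 0.0858 in Setd5+/-.

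The desaturases of polyunsaturated chains rose as well. Fads1, the delta-5 desaturase, had 5753, 5845 and 5607 in WT and 9718, 9401 and 9456 in Setd5+/-. Fads2, the delta-6 desaturase, had 2637, 2658 and 2550 in WT and 4145, 3802 and 4013 in Setd5+/-. In both genes the mutant samples stood clear of the WT samples, with log2 fold changes of 0.73 (0.69 to 0.77) for Fads1 and 0.61 (0.55 to 0.66) for Fads2. The elongases Elovl5 and Elovl6 rose by 0.21 each on the log2 scale (0.14 to 0.27 and 0.12 to 0.31), from 2209 to 2549 and from 1014 to 1175 normalized counts.

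All 4 desaturases lie on chromosome 19. Scd2 (chr19:44293674-44306864, plus strand) and Scd1 (chr19:44394455-44407879, minus strand) are neighbours, as are Fads2 (chr19:10062765-10101746, minus strand) and Fads1 (chr19:10182888-10196877, plus strand). The median over the 496 tested genes of this chromosome was −0.09. A median of the whole chromosome does not describe the neighbourhoods of these genes, and a part of position was not tested. Because Scd2 held 59.3% of the WT sum over the 10 fatty acid genes, that sum rose from 59399 to 108850 although 3 of the genes fell. The sum over the desaturases rose 2.11-fold.

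**Figure D4:**
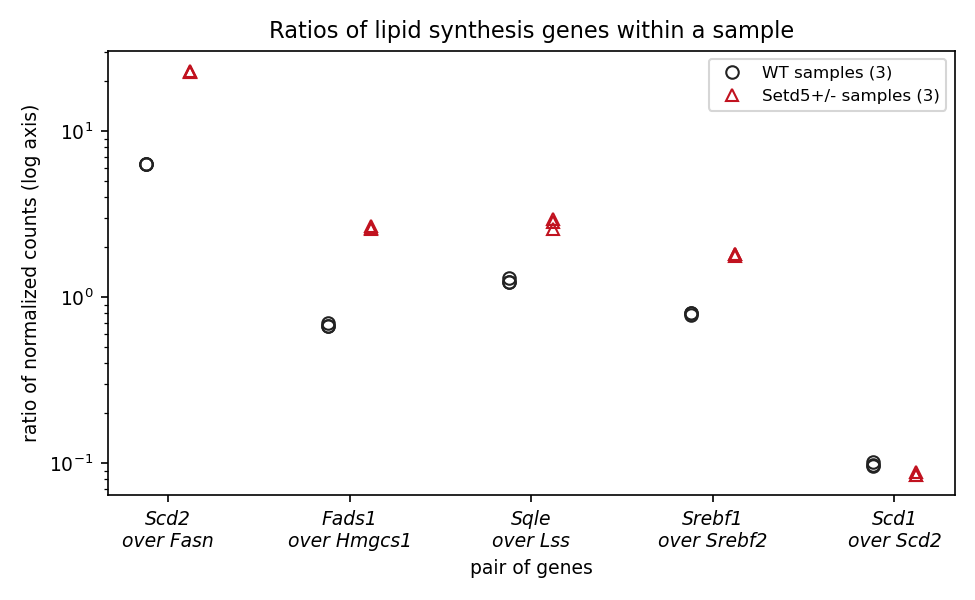
Ratios of normalized counts (vertical log axis) between pairs of lipid synthesis genes within each WT sample (circles) and Setd5+/- sample (triangles). Scd2 over Fasn goes from 6.30 to 22.8 and Fads1 over Hmgcs1 from 0.678 to 2.63, whereas Scd1 over Scd2 moves little, from 0.0983 to 0.0858.

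Ratios within a sample do not depend on how samples were scaled to each other. The ratio of Scd2 to Fasn was 6.30 in WT and 22.8 in Setd5+/-, and that of Fads1 to Hmgcs1 0.678 and 2.63. Per kilobase of exon, Hmgcs1 stood at 1842 in WT and 789 in Setd5+/-, and Fads1 at 1192 and 1979, so that their order changed places.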

How the data were processed

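RNA of NSCs at 21% oxygen (6 samples, grouped by their titles) was analysed from a table of normalized counts. Per the labels and the study's methods, the authors trimmed the reads (Trimmomatic), aligned them to mm10 (Bowtie2) and deposited counts per gene that DESeq2 had scaled by a size factor for every sample. The counting program and its use of strand are not given in the sources used here. Further columns give the result of their own DESeq2 comparison (fold changes, test statistics and p-values), which was not used. The deposited values had lost their decimal points. The worth of 1 read (0.829, 0.827 and 0.828 normalized counts in WT and 1.19 in Setd5+/- samples) was found from low counts, and each point was set where it gave whole reads, with the deposited mean settling 1116 genes. In simulated data 100% of values were restored.

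Genes with 10 or more normalized counts on average were tested with limma 3.58.1 (R 4.3.3, eBayes with trend) on log2(normalized count + 1), so that fold changes of low genes are understated, with Benjamini-Hochberg adjustment over 16266 genes and a threshold of 0.05. In simulated counts 164 of 188 changed genes were recovered, with 5 false calls among 16300. Counting intervals (95%) are Poisson intervals widened by the variance over mean of single reads within a genotype (1.95 in WT, 1.92 in Setd5+/-), since reads came in pairs. Reads on genes were 9995980 to 10004948 per WT sample and 7143309 to 7146147 per Setd5+/- sample. Since the 3 samples of a genotype were counted as parts of 1 library, no SD is given. The p-values set the difference between the libraries against the spread between such parts only. Positions and exon lengths are from GENCODE vM21 (GRCm38), near-identical pseudogenes were sought with BLAST+ 2.17.0, and promoter windows are from RefSeq (GRCm38.p6). 

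The genes, lists and tests were chosen with earlier results of these data known. Values in every sample are given for genes past a 2-fold change and for the largest rise, the largest fall and the most abundant gene of each group, and some others were added after their values were seen. From each further list the largest rise and fall are named. Alternatives were the pseudocount, the filter, the scaling (upper quartile, TMM, centring without chromosome 1), the fold threshold, the trend, a replicate block, leaving out each sample, and the handling of pseudogenes.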

Additional observations from a re-analysis of the deposited data

How the results depend on the processing

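Of the 8 summary values (3 medians, the difference of the branches and 4 counts), 133 of 138 recomputed values kept their direction and moved by less than the set limits, under other pseudocounts (0.5 and 5), filters, scalings, the limma fit without trend, each sample left out and the other choices tried. The limit was a factor of 1.5 for a count. For a median or the difference it was the reach of the counting interval to either side, taken at the middle genes. Some of the 138 values could not move, whatever the data. Dropping the filter or adding a balanced replicate block leaves the fold changes of these genes as they are. A common rescaling barely touches the difference of the branches. The tally of 133 is therefore not a measure of stability. With a fold threshold of 1.5, 11 genes were lower and 5 higher. Without the 5 genes that have a near-identical pseudogene, a choice added after seeing the data, the sterol median was −0.23, the fatty acid median 0.41 and their difference −0.64. Adding the pseudogene reads or leaving out Hsd17b7 on chromosome 1, also added later, moved none of them past the limits. The count of genes at least 2-fold lower, 6 with all samples, was 4 to 7 when 1 sample was left out. It was 4 without Setd5+/- sample 3, a change that lay inside the limit for a count. The sign of Hsd17b7 changed, with log2 values of −0.0021 under upper-quartile scaling, −0.019 under TMM scaling and −0.066 to 0.104 when 1 sample was left out. Calls at the threshold changed for Pmvk, Cyp51, Sc5d and Insig1, and the cause was not tested. Cyp51 did not pass without trend (limma adjusted p = 0.0784), Pmvk passed without Setd5+/- sample 1 (0.0446), and Sc5d passed under upper-quartile scaling (0.0495), TMM scaling (0.0280) and without Setd5+/- sample 2 (0.0184). With a replicate block the medians of −0.69, 0.21 and 0.30 could not change, since the design is balanced. The counts past the limma threshold could, and stayed at 15 lower and 10 higher. Deviations of equally numbered samples correlated by −0.0071 to 0.0049, so that the numbers only name samples. The planned count models on recovered reads were not run. With 1 library per genotype, no alternative speaks to other clones or cultures.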

Other observations

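Genes around the 2 pathways were followed in further lists. One list of 16 genes held those that process or control SREBPs and other regulators of lipid synthesis (Mlxipl, Mlx, Mid1ip1 and Thrsp). Of these 16, 9 were higher and 4 lower past the limma threshold, with a median log2 fold change of 0.58. Among all tested genes 30.3% were higher and 30.9% lower. The proteases Mbtps1 and Mbtps2, which release the SREBPs from the Golgi membrane, rose by 0.95 and 0.75. Mlxipl, which encodes the glucose-responsive factor ChREBP, rose most, by 1.22 (0.48 to 1.95) at a low level of 11.0 normalized counts in WT and 26.6 in Setd5+/-, and its partner Mlx fell most, by 0.51 (−0.71 to −0.31). Insig2, which lies on chromosome 1, was at least 2-fold higher.

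The shares of all tested genes past the same threshold, 30.3% higher and 30.9% lower, also go with the counts that follow. Of 10 tested genes of cholesterol uptake, storage and efflux, 8 were higher and 1 lower, with a median of 0.58. Mylip, an E3 ligase known to degrade lipoprotein receptors, had the largest value, 1.82 (1.03 to 2.61). It went from 8.0 to 29.4 normalized counts and reached the level set for testing only through its mutant samples. Scarb1, a receptor of lipoproteins, fell most, by 0.26 (−0.35 to −0.16). Vldlr, a lipoprotein receptor, rose by 1.78, and Soat1, which esterifies cholesterol and lies on chromosome 1, by 1.43. Abcg1, an efflux transporter with 62 reads in WT and 2 in Setd5+/-, did not reach that level, so that the count of 8 against 1 leaves it out. Among 9 other sterol and isoprenoid enzymes the median was 0.05, with 3 higher and 3 lower, near the shares of all tested genes. Acat2, the cytosolic thiolase that starts the cholesterol branch, fell most, from 747 to 232 normalized counts, by 1.69 (−1.87 to −1.51), and Lbr, a sterol reductase of the nuclear envelope on chromosome 1, rose most, by 1.44.

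The 22 other fatty acid enzymes had a median of −0.05, with 7 higher and 8 lower, also near those shares. Acsl3, an acyl-CoA synthetase on chromosome 1, rose most, by 1.33 (1.25 to 1.41), and Elovl2, an elongase of polyunsaturated chains, fell most, by 1.79 (−2.01 to −1.57). The 12 genes of glycerolipid and phospholipid synthesis had a median of 0.24, with 5 higher and 5 lower, against the same 30.3% and 30.9%. Gpam, the first acyltransferase of glycerolipid synthesis, rose most, from 659 to 2195 normalized counts, by 1.74 (1.64 to 1.83), and Pcyt2 of the ethanolamine branch fell most, by 0.39 (−0.50 to −0.28). Mbtps1, Mbtps2, Insig2, Vldlr, Soat1, Abcg1 and Elovl7 were named after their values were seen.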
